A study of Mus musculus with 2 samples.

Results

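Messenger RNA of 10 genes of the BCL2 family, taken from the 31055 features counted in each library by gene symbol, was followed in single cells of irradiated mouse medulloblastoma. The pro-survival members were Bcl2, Bcl2l1 (which encodes BCL-XL), Bcl2l2 (BCL-W) and Mcl1. The pore-forming members were Bax and Bak1. The BH3-only members were Bid, Bcl2l11 (BIM), Bbc3 (PUMA) and Pmaip1 (NOXA). The tumours arose in Math1-Cre;SmoM2fl/fl mice, in which Cre driven by Math1 (Atoh1), a gene of granule neuron progenitors of the cerebellum, switches on an activated Smoothened. Both libraries carried this genotype and both tumours were irradiated with protons, 1 at the standard rate and 1 at the ultra-high FLASH rate, and no unirradiated library was analysed here. The dose is uncertain, since the sample labels state 5 Gy but the design text states 10 Gy. How long after irradiation the tumours were taken, and how many mice went into each library, the sources used here do not say. With 1 library per group there is no replicate error, so no test between groups was possible, and every interval below covers counting error only, at 95%.

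Cells die by the mitochondrial route when BAX and BAK form pores in the outer mitochondrial membrane and release cytochrome c. Pro-survival proteins hold these pore formers in check, and BH3-only proteins release or activate them. Bbc3, Pmaip1 and Bax are known targets of p53, the factor activated by DNA damage, and loss of Bax or Bbc3 is known to spare granule neuron progenitors from irradiation. Much control of the family acts on the proteins, which these counts do not measure.

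The standard library kept 7888 cells with a median of 5571 unique molecular identifiers (UMIs, each standing for 1 captured RNA molecule) and the FLASH library kept 9506 cells with a median of 5212. The libraries shared 21 cell barcodes among the kept cells. Cells were clustered without the 10 genes and named from marker genes, with the suffix -like because the labels name no cell type. The named granule neuron lineage states, called tumour-lineage cells, comprised 5416 and 6823 cells in the standard and FLASH library. These cells had Atoh1 at 68.0 and 63.3 CPM (the usual depth-scaled unit, here the summed UMIs of a gene scaled by all UMIs of the class). Barhl1 was at 326 and 302 CPM and the transgene transcript SmoM2EYFP at 21.6 and 25.3 CPM. Atoh1 and Barhl1 are on the marker list used to name progenitor-like clusters, so their levels are no separate check of the label. The tumour-lineage cells fell into non-cycling progenitor-like cells (1698 and 2080), S phase entry (501 and 703), histone-rich S phase (625 and 957), G2 and mitosis (827 and 1031), early postmitotic granule neuron-like cells (1548 and 1823) and later granule neuron-like cells (217 and 229).

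Promoter sequence is shown for Bbc3, Bcl2l1 and Bax, the last being the p53 target among the pore formers. Bbc3 and Bcl2l1 were the members at least 1.5-fold higher in CPM in neuron-like than in non-cycling progenitor-like cells of both libraries. Each run covers the 250 bases before a RefSeq start site of build GRCm38.p6, 5′ to 3′ in the direction of the gene, and holds no annotated exon. Both strands were searched for the p53 half-site and for CAGATG, a motif bound by granule lineage factors such as ATOH1 and NEUROD1, and matches are in capitals. The window of Bbc3 lies before the most upstream of its 3 listed start sites, at chr7:16309333-16309582 on the plus strand, inside the span that GENCODE M21 gives the gene (chromosome 7, 16308393 to 16318205). The window of Bax lies at chr7:45466899-45467148 on the minus strand, next to the gene at 45461697 to 45466898. The window of Bcl2l1 lies at chr2:152831729-152831978 on the minus strand, next to the gene at 152780668 to 152831728.

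Bbc3: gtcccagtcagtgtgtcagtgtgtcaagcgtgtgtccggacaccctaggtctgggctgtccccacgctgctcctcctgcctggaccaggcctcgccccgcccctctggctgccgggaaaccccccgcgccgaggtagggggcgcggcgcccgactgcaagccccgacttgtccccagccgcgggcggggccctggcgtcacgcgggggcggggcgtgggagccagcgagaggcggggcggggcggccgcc

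Bax: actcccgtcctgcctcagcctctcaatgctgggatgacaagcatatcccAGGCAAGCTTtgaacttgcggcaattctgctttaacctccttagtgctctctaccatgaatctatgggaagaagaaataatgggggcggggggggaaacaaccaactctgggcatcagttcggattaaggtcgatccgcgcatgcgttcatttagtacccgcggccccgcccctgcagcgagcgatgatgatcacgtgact

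Bcl2l1: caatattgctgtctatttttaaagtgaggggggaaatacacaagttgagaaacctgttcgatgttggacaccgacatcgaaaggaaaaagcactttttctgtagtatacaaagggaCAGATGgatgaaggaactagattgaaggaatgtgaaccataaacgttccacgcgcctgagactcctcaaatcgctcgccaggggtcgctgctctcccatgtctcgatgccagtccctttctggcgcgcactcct

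The Bax window held 1 p53 half-site, starting at position -201 from the start site, and this motif was found in 7.12% of the 32536 windows of 250 bases in the table. The Bcl2l1 window held 1 CAGATG at position -134, a motif found in 14.4% of all windows. The motifs did not overlap, and the Bbc3 window held neither. RefSeq windows were used for 9 of the 10 members, 14 windows in all, and no other window of a member held either motif. Among members not shown, Mcl1 lies on chromosome 3 (95658788 to 95663176, plus strand), Bcl2 on chromosome 1 (106538178 to 106714274, minus), Bak1 on chromosome 17 (27019810 to 27029009, minus), Bid on chromosome 6 (120891930 to 120916853, minus), Bcl2l11 on chromosome 2 (128126038 to 128162547, plus) and Bcl2l2 on chromosome 14 (54883377 to 54888234, plus), as annotated on mm10.

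Across the states of the tumour lineage, in CPM, Bbc3 and Bcl2l1 were highest in neuron-like cells and Bak1 was lowest there. Bid was lower in histone-rich S phase and in G2 and mitosis than on entry into S phase. In all, 8 of the 10 members differed by at least 1.5-fold between their highest and lowest state in the same direction in both libraries. This was also the case for 72.5% of the 11868 genes with enough counts, so the count does not set the members apart. Pmaip1, 1 of the 8, had too few UMIs to be among those genes. Its difference rests on 13 and 14 UMIs in histone-rich S phase against 7 and 6 in early neuron-like cells. For Bak1 the lowest state, later neuron-like cells, had 5 and 2 UMIs. Bax and Bcl2l11 did not reach that fold.

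**Figure D1:**
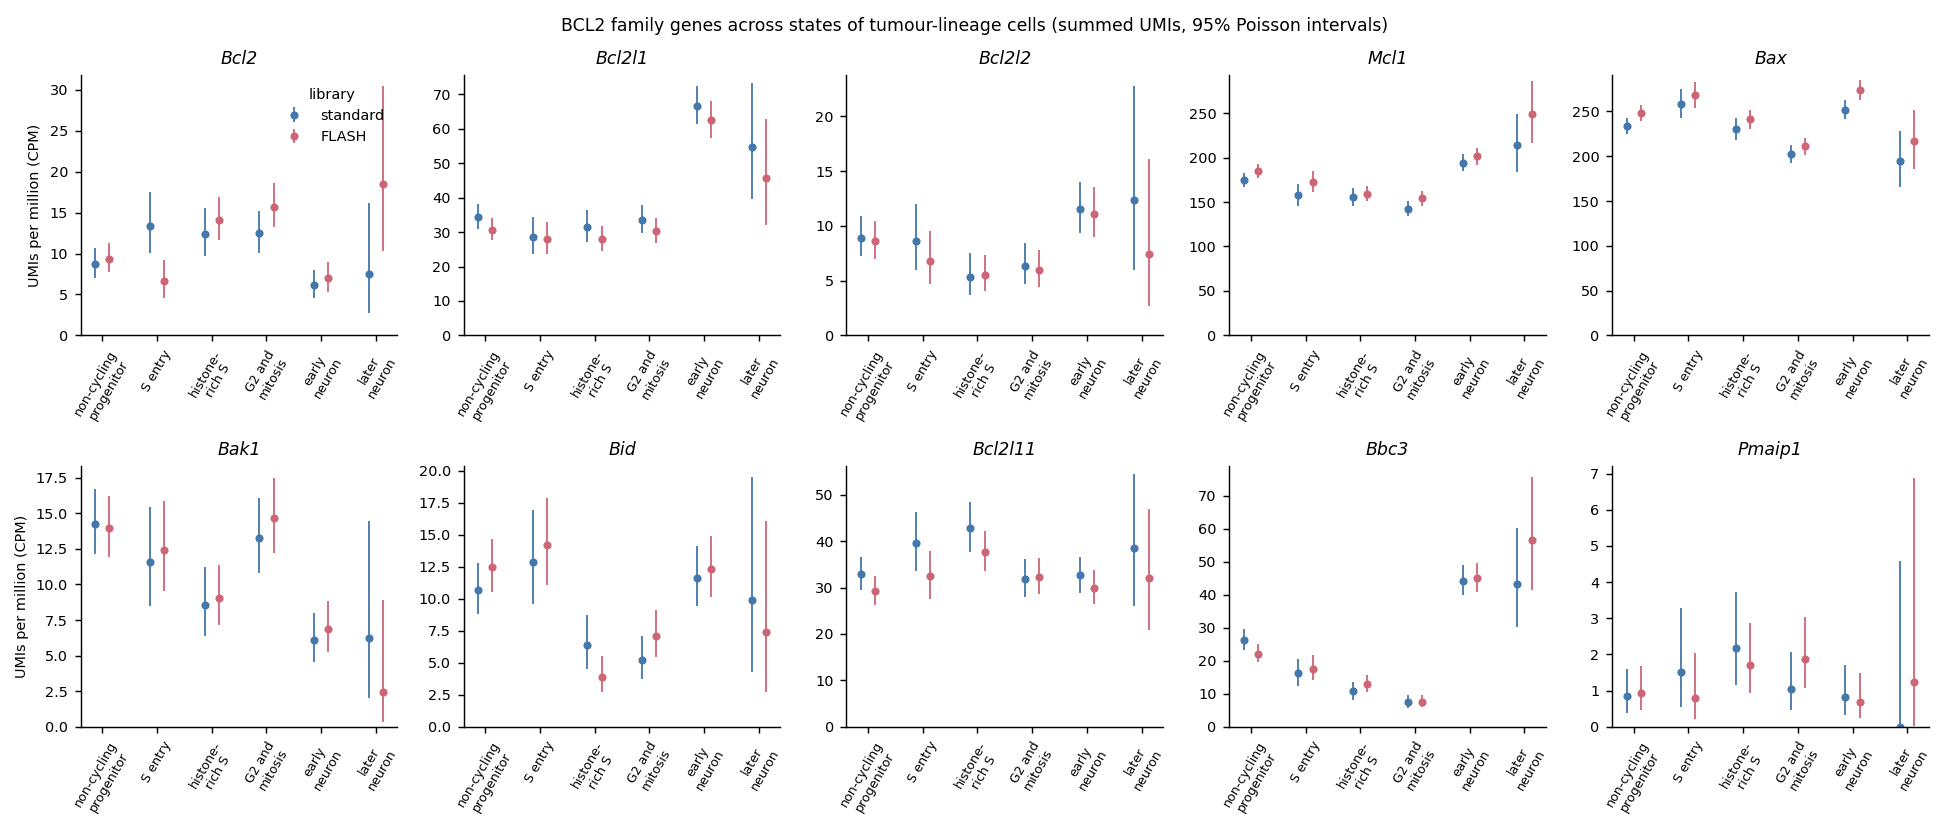
Level in CPM (vertical axes from 0) of each of the 10 genes in the 6 states of tumour-lineage cells, by library (blue standard, red FLASH), with points for summed UMIs and bars for 95% Poisson intervals. Bbc3 is lower in each cycle state from non-cycling progenitor-like cells to G2 and mitosis and is highest in neuron-like cells in both libraries.

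Among the pro-survival members, Bcl2l1, which protects differentiated neurons, was higher in CPM in neuron-like cells than in progenitor-like cells, cycling or not. It had 34.4 CPM (31.0 to 38.1) in non-cycling progenitor-like cells of the standard library and 30.7 CPM (27.6 to 34.0) of the FLASH library. In early neuron-like cells it had 66.6 CPM (61.3 to 72.3) and 62.5 CPM (57.4 to 68.0). In CPM, the values of the neuron-like cells lay above those of all 4 progenitor and cycle states in both libraries. Those 4 states lay between 27.9 and 34.4 CPM and did not differ between neighbours in the order beyond counting error. Neuron-like cells of both steps together over non-cycling progenitor-like cells gave log2 ratios of 0.93 (0.74 to 1.12) and 0.99 (0.80 to 1.19). Later neuron-like cells had 54.6 and 45.6 CPM, and their intervals from the early ones overlapped. Counted per cell, early neuron-like cells stayed the highest state, but later ones were the lowest, with 44 and 37 Bcl2l1 UMIs in 217 and 229 cells. Non-cycling progenitor-like cells had 371 and 361 UMIs in 1698 and 2080 cells.

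Mcl1, which encodes a short-lived survival protein, had an order that turned with the scale. In CPM it was lowest in G2 and mitosis, at 143 CPM (134 to 151) and 154 CPM (146 to 163), and highest in later neuron-like cells, at 215 CPM (184 to 249) and 249 CPM (216 to 286). The order of all 6 states was the same in both libraries. Counted per cell, later neuron-like cells were the lowest instead, at 79.7 and 88.2 Mcl1 UMIs per 100 cells, and histone-rich S phase the highest, at 149 and 136. Median depth differed between these states: 3680 and 3475 UMIs in later neuron-like cells against 9708 and 8376 in histone-rich S phase.

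Bcl2, the founding member, was scarce. Its level was 12.5 CPM (10.1 to 15.3) and 15.7 CPM (13.2 to 18.6) in G2 and mitosis, and 6.1 CPM (4.56 to 8.0) and 6.98 CPM (5.34 to 8.97) in early neuron-like cells. Later neuron-like cells gave 7.44 and 18.5 CPM from 6 and 15 UMIs. The libraries disagreed on its place in S phase entry, where it had 53 UMIs and 13.4 CPM in the standard library but 33 UMIs and 6.60 CPM in the FLASH library. Its ratio of neuron-like over non-cycling progenitor-like cells, a mean of -0.36 on the log2 scale, changed sign with a stricter gene minimum per cell (0.14) and with coarser clusters (0.41). Bcl2l2 had 11.5 and 11.1 CPM in early neuron-like cells and 5.35 and 5.52 CPM in histone-rich S phase, with 32 and 45 UMIs behind the latter values.

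Of the pore formers, Bax was nearly flat in CPM and Bak1 was not. Bax ranged from 195 to 258 CPM over the states of the standard library and from 211 to 274 CPM in the FLASH library. A Bax UMI was found in 74.3% and 73.6% of tumour-lineage cells. Per 100 cells it ranged from 72.4 and 76.9 UMIs in later neuron-like cells to 220 and 206 in histone-rich S phase, in the same direction as depth. Bak1 had 14.3 CPM (12.1 to 16.7) and 14.0 CPM (11.9 to 16.3) in non-cycling progenitor-like cells. It had 6.1 CPM (4.56 to 8.0) and 6.87 CPM (5.24 to 8.84) in early neuron-like cells. The intervals of these states did not overlap, and neuron-like over non-cycling progenitor-like cells gave log2 ratios of -1.22 (-1.69 to -0.78) and -1.10 (-1.55 to -0.67).

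Bak1 also differed within named states. The progenitor-like cluster led by Hes1 had 18.3 and 18.4 CPM, and the other one, led by muscle-type genes such as Mylpf and Tnnc2, had 9.80 and 8.99 CPM. Within G2 and mitosis, the cluster led by Ccnb2 and Cenpa had 23.7 and 20.1 CPM, against 7.69 and 12.3 CPM in the cluster led by Prc1 and 10.2 and 12.5 CPM in the one led by Cenpf and Ccnb1. Bcl2l1 took the other direction between the progenitor-like clusters, with 23.6 and 24.4 CPM in that led by Hes1 and 46.4 and 37.8 CPM in the other.

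Among all 10 members, Bbc3 had the widest range over the 6 states in both libraries. In the standard library it had 26.2 CPM (23.3 to 29.5) in non-cycling progenitor-like cells, 16.1 CPM (12.4 to 20.6) at S phase entry, 10.7 CPM (8.24 to 13.7) in histone-rich S phase and 7.55 CPM (5.73 to 9.76) in G2 and mitosis. The FLASH library gave 22.1, 17.6, 12.9 and 7.58 CPM in the same order. Early neuron-like cells had 44.2 CPM (39.9 to 48.9) and 45.1 CPM (40.8 to 49.8), and later ones had 43.4 and 56.7 CPM. In CPM, neuron-like cells thus lay above every progenitor and cycle state in both libraries, with no overlap of the early neuron-like intervals with theirs. Early and later neuron-like cells did not differ beyond counting error. From G2 and mitosis to later neuron-like cells the difference was 5.78-fold and 7.51-fold. For early neuron-like cells the direction was the same per cell, with 7.01 and 6.30 Bbc3 UMIs per 100 cells in G2 and mitosis and 24.4 and 21.6 in early neuron-like cells. Later ones had 35 and 46 UMIs in 217 and 229 cells, and non-cycling progenitor-like cells 283 and 260 in 1698 and 2080. Per cell, later neuron-like cells were thus above G2 and mitosis in both libraries, but slightly below non-cycling progenitor-like cells in the standard library.

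Bid, which links death receptors to the mitochondria, had 12.9 CPM (9.58 to 16.9) and 14.2 CPM (11.1 to 17.9) at S phase entry. In histone-rich S phase it had 6.35 CPM (4.50 to 8.72) and 3.92 CPM (2.68 to 5.54), and the intervals of these neighbouring cycle states did not overlap. In G2 and mitosis it had 5.21 and 7.11 CPM. Bid was not particularly high at S phase entry. Non-cycling progenitor-like cells (10.7 and 12.5 CPM) and early neuron-like cells (11.6 and 12.4 CPM) lay inside the S phase entry intervals. Bcl2l11, a BH3-only gene induced when growth signals are withdrawn, was highest in histone-rich S phase at 42.8 CPM (37.7 to 48.4) and 37.7 CPM (33.6 to 42.2). Elsewhere Bcl2l11 lay between 29.2 and 39.6 CPM, and S phase entry, the next state, did not differ from histone-rich S phase beyond counting error in either library. Pmaip1 was near the detection limit, with 43 and 52 UMIs in all tumour-lineage cells (1.14 and 1.21 CPM). A Pmaip1 UMI was found in 0.794% and 0.762% of these cells, and none of its neighbouring states differed beyond counting error.

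Against non-cycling progenitor-like cells, calls were counted over the 9 members with enough counts, which leaves out Pmaip1. Of these, 2 members were at least 1.5-fold higher in neuron-like cells of both libraries, Bcl2l1 and Bbc3, where 14.7% of genes were. Bak1 was lower, as were 13.7% of genes. In G2 and mitosis 0 members were higher (7.08% of genes) and 2 were lower (10.8% of genes), Bbc3 and Bid, at log2 ratios of -1.79 and -1.54 for Bbc3 and -1.02 and -0.81 for Bid. In histone-rich S phase 0 were higher (10.4% of genes) and 4 were lower (11.7% of genes): Bcl2l2, Bak1, Bid and Bbc3. Pmaip1, outside that count, was 2.56-fold and 1.82-fold higher in histone-rich S phase, from 13 and 14 UMIs against 9 and 11. At S phase entry 0 members were higher (6.48% of genes) and 0 lower (3.83%). Later over early neuron-like cells gave 0 higher (12.8%) and 0 lower (6.16%).

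Other genes of the pathway were read from lists of related family members, of steps after the pore and of regulators. These genes were not left out of the clustering, so their differences between states are in part built in. In neuron-like over non-cycling progenitor-like cells, 2 of 8 measured other family genes were higher and 3 lower. Hrk, a BH3-only gene of dying neurons that also leads an early neuron-like cluster, had 76.8 and 73.3 CPM in early neuron-like cells but 17.4 and 19.7 CPM in later ones, against 28.0 and 23.1 CPM in non-cycling progenitor-like cells. Bcl2l12 had 4.82 and 4.50 CPM there and 22.4 and 23.0 CPM in non-cycling progenitor-like cells. Among genes of the steps after the pore, the initiator caspase gene Casp9 was higher in neuron-like cells (9.75 and 12.9 CPM, against 5.75 and 5.87 CPM in non-cycling progenitor-like cells). Of 18 regulators 4 were higher and 4 lower, and of 18 p53 targets outside the family 1 was higher and 5 lower, with Cdkn1a at 8.79 and 9.85 CPM in neuron-like cells and 23.2 and 25.7 CPM in progenitor-like cells. In G2 and mitosis the same lists gave 0 higher and 2 lower of 8 other family genes, 1 and 2 of 13 genes after the pore, 0 and 2 of 18 regulators, and 2 and 5 of 19 p53 targets. The median log2 ratio of neuron-like over non-cycling progenitor-like cells was 0.10 for the 9 measured members and 0.03 for all genes.

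Between the libraries, the family was close in tumour-lineage cells. None of the 10 members differed by 1.5-fold, a difference that 0.826% of 11868 genes showed. The median log2 ratio of FLASH over standard was 0.07 for the members and 0.01 for all genes, and all genes ran from -0.23 at the 5th to 0.23 at the 95th percentile, a range that held all 10 members. In the same comparison 0 genes of each of the 4 lists above were higher and 0 lower.

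**Figure D2:**
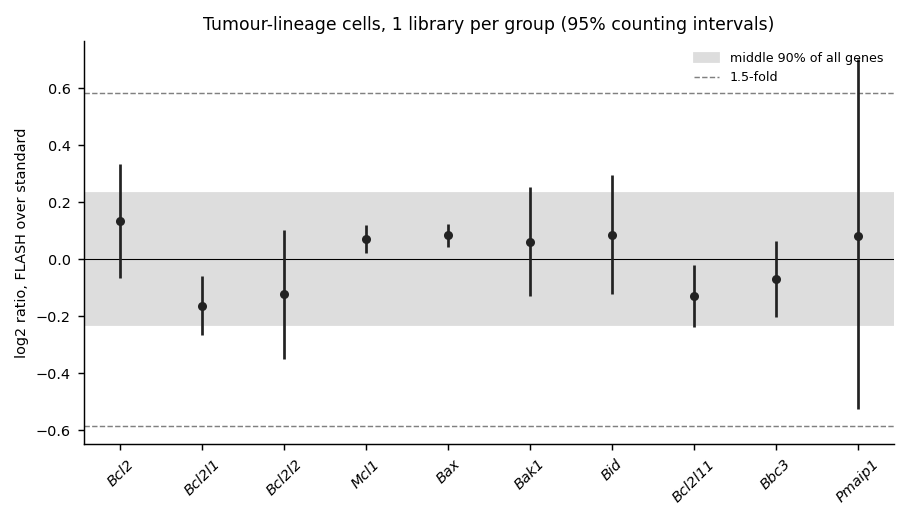
Log2 ratio of FLASH over standard (vertical axis) for the 10 genes in tumour-lineage cells, with points for summed UMIs, bars for 95% counting intervals, a grey band from the 5th to the 95th percentile of all genes and dashed lines at 1.5-fold. All 10 points lie inside the band, and the interval of Pmaip1 is the widest.

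Bcl2l1 had 40.9 CPM (38.9 to 43.0) in the standard library and 36.5 CPM (34.7 to 38.4) in the FLASH one, a log2 ratio of -0.16 (-0.26 to -0.06). Bcl2l11 had 35.0 and 32.0 CPM (-0.13, -0.24 to -0.02). Mcl1 had 169 and 177 CPM (0.07, 0.02 to 0.12) and Bax 233 and 246 CPM (0.08, 0.04 to 0.12). The counting intervals of these 4 members excluded 0, in a comparison whose spread between animals is unknown. The other 6 did not differ beyond counting error: Bcl2 (9.94 and 10.9 CPM), Bcl2l2 (8.45 and 7.76 CPM), Bak1 (10.9 and 11.3 CPM), Bid (9.30 and 9.87 CPM), Bbc3 (23.3 and 22.3 CPM) and Pmaip1. For Bbc3 the interval of the log2 ratio ran from -0.20 to 0.07, and for Pmaip1 from -0.53 to 0.70.

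Within single states, every member past 1.5-fold between the libraries had fewer than 100 UMIs over both. At S phase entry, where 1.35% of genes with enough counts were past that fold, these were Bcl2, named above, and Pmaip1 with 6 and 4 UMIs. In histone-rich S phase (1.08% of genes) it was Bid, with 38 and 32 UMIs, and in G2 and mitosis (0.983%) Pmaip1, with 8 and 16 UMIs. In later neuron-like cells (1.68%) they were Bcl2, Bcl2l2, Bak1 and Pmaip1, none with more than 15 UMIs in a library. In non-cycling progenitor-like cells (0.961%) and early neuron-like cells (0.698%) there were 0. Bcl2 at S phase entry had a log2 ratio of -1.01 (-1.69 to -0.36).

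A small cluster outside the named states had Bbc3 and Pmaip1 levels far above those of every named state. It was led by Nol4l, Cdkn1a, Dusp8, Creb5, Stmn4 and Bbc3 itself, although Bbc3 was not among the genes used to cluster, and held 12 standard and 42 FLASH cells. Bbc3 had 27 UMIs there in the standard library, 1163 CPM (767 to 1693), and 139 UMIs in the FLASH library, 1957 CPM (1645 to 2311). A Bbc3 UMI was found in 58.3% and 73.8% of these cells, against 14.4% and 12.3% of tumour-lineage cells. Pmaip1 had 3 UMIs, 129 CPM (26.7 to 378), and 24 UMIs, 338 CPM (217 to 503). The cluster made up 0.152% and 0.442% of kept cells but held 2.54% and 10.8% of all Bbc3 UMIs, and 2.70% and 16.8% of all Pmaip1 UMIs.

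**Figure D3:**
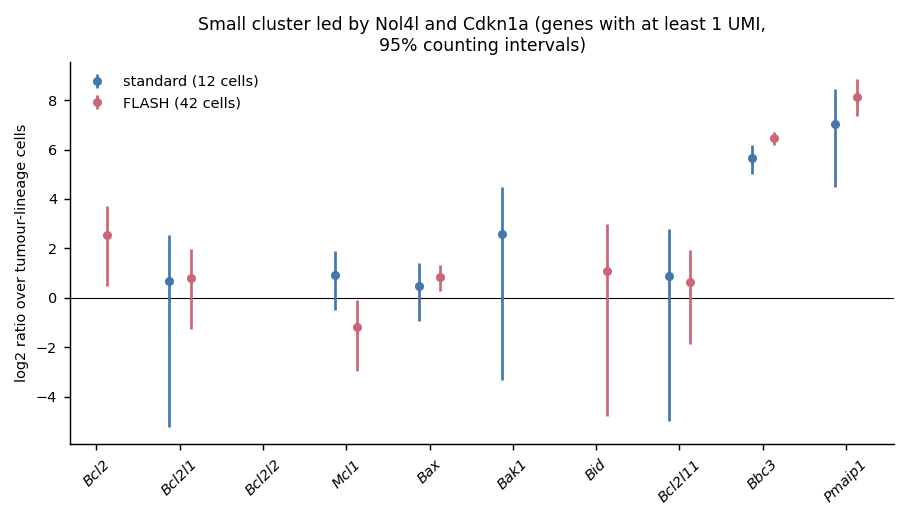
Log2 ratio (vertical axis) of each gene in the small cluster led by Nol4l and Cdkn1a over tumour-lineage cells of the same library, for genes with at least 1 UMI, with 95% counting intervals (blue standard, 12 cells, red FLASH, 42 cells). Bbc3 and Pmaip1 lie far above 0 in both libraries, and most other genes have intervals that include 0.

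The other members did not share that rise in both libraries. Bax had 302 CPM (7 UMIs) and 436 CPM (31 UMIs) in the cluster, with a log2 ratio over tumour-lineage cells of 0.47 (-0.94 to 1.42) and 0.85 (0.27 to 1.33). Mcl1 had 7 and 5 UMIs, 302 and 70.4 CPM, with log2 ratios of 0.94 (-0.48 to 1.88) and -1.19 (-2.95 to -0.11). Bcl2 had 0 UMIs in the standard library, with an interval up to 159 CPM, so a rise there could not be seen. In the FLASH library Bcl2 had 4 UMIs, a log2 ratio of 2.54 (0.49 to 3.74). Bcl2l1 had 1 and 4 UMIs, and Bcl2l2 had 0 in both. Cdkn1a had 2585 and 3872 CPM there, and Trp53 had 388 and 422 CPM against 159 and 163 CPM in tumour-lineage cells. The cells were shallow, with medians of 1161.5 and 1420.5 UMIs, and most tumour lineage markers were below their tumour-lineage level. Cre had 388 and 197 CPM there against 854 and 710 CPM, and Ptch1 had 302 and 211 CPM against 444 and 465 CPM. Barhl1 had 431 and 155 CPM against 326 and 302 CPM, Atoh1 had 0 and 2 UMIs, and SmoM2EYFP had 0 and 3. Whether these marker counts were carried over from other cells was not tested. Including them, the log2 ratio of FLASH over standard for Bbc3 went from -0.07 to 0.08 and that for Pmaip1 from 0.08 to 0.53. The part of depth in this result was not tested.

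Within the named states, cells split by Cdkn1a showed no such Bbc3 level. Cells with at least 3 Cdkn1a UMIs (148 and 227) were set against cells with 0 (4703 and 5832), a split by a measured value that is given as a description. Bbc3 had 17.1 against 25.1 CPM in the standard library and 25.9 against 23.9 CPM in the FLASH library. Of the Cdkn1a-high cells, 65 and 125 were in histone-rich S phase, where Bbc3 is low, and with Cdkn1a-negative cells held to the same mix of states the log2 ratios were 0.43 and 1.05. Bid was lower by 1.5-fold in both libraries, with 5 and 11 UMIs in Cdkn1a-high cells, but with the same mix of states its log2 ratios were -1.11 and -0.20, and the call was lost in the FLASH library. Pmaip1 was higher with 3 and 6 UMIs, too few for the gene shares given next. Of the 9 members with enough counts 0 were higher and 1, Bid, was lower. Among all genes 5.72% were higher and 6.44% lower. Cdkn1a-high cells were also deeper, with medians of 9758 and 8328 UMIs against 6383 and 5676.

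Outside the tumour lineage, Mcl1 was called higher in 6 of 10 classes, 5 of them leukocyte-like. Neutrophil-like cells (14 and 22) had 2116 CPM (1598 to 2748) and 2364 CPM (1893 to 2915) of Mcl1, on which neutrophil survival is known to depend, and monocyte-like cells (16 and 35) had 1298 and 1090 CPM. Mcl1 was at 478 and 429 CPM in microglia-like cells (56 and 40), 503 and 441 CPM in dendritic-like cells (12 and 13), 345 and 344 CPM in endothelial-like cells (30 and 48) and 278 and 307 CPM in macrophage-like cells (84 and 91). These 6 classes were at least 1.5-fold above tumour-lineage cells in both libraries, by 12.7-fold and 13.4-fold in neutrophil-like cells. T or NK-like cells (19 and 24) did not reach that fold, at 197 and 245 CPM. Oligodendrocyte-like cells (16 and 10) were below, at 98.8 and 110 CPM. Over the 10 classes, 15 of 100 pairs of member and class were called higher, 2 lower and 20 neither, and 63 had too few UMIs to call. A member expected at few UMIs in a small class could reach the UMI minimum only by being high there, so the numbers called higher and lower are not balanced. This includes Mcl1 in neutrophil-like cells, which could not have been called lower. Among all genes measured, the shares called higher and lower were 21.3% and 44.9% in microglia-like, 20.7% and 45.2% in macrophage-like, 24.4% and 35.8% in monocyte-like, 20.4% and 36.1% in dendritic-like and 31% and 48.8% in neutrophil-like cells. They were 16.5% and 28.9% in T or NK-like, 22.7% and 14.8% in oligodendrocyte precursor-like, 25.6% and 33.3% in oligodendrocyte-like, 24.6% and 25.8% in endothelial-like and 0.455% and 34.6% in erythroid-like cells. Bax was called in 1 class, named below, and in the other 9 it stayed within 1.5-fold in at least 1 library.

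**Figure D4:**
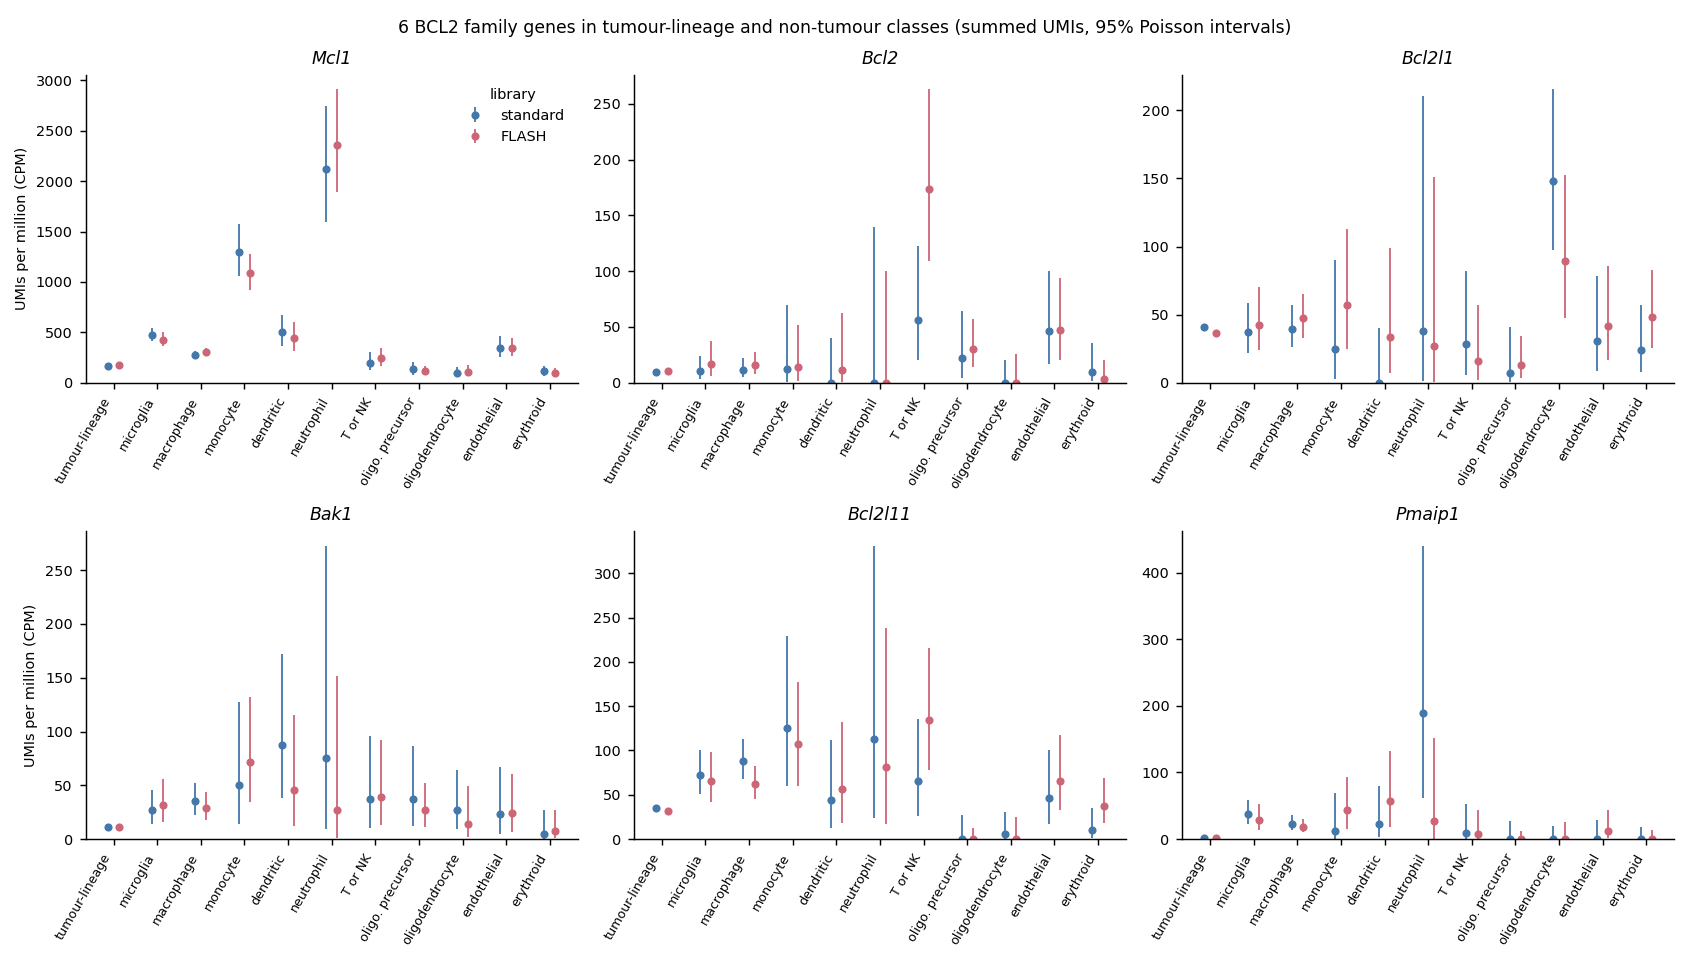
Level in CPM (vertical axes from 0) of 6 members in tumour-lineage cells and 10 non-tumour classes, by library (blue standard, red FLASH), with 95% Poisson intervals. Mcl1 is highest in neutrophil- and monocyte-like cells, and wide bars mark classes with few UMIs.

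Microglia-like and macrophage-like cells also had more RNA of Bak1 and of 2 of the 4 BH3-only members, Pmaip1 and Bcl2l11. Pmaip1 in both classes, and Bak1 in microglia-like cells, reached the UMI minimum only through raised counts and could not have been called lower. The same held for Bcl2l11 in monocyte-like and in T or NK-like cells, given below. Bbc3 was called in neither class, with 15.5 and 18.4 CPM in macrophage-like cells, and Bid was not called in macrophage-like cells and had too few UMIs in microglia-like ones. Pmaip1, scarce in the tumour lineage, had 37.2 CPM (22.1 to 58.8) and 28.4 CPM (13.6 to 52.2) in microglia-like cells and 22.5 and 18.4 CPM in macrophage-like cells. Bcl2l11 had 72.4 and 65.3 CPM in microglia-like, 88.5 and 61.6 CPM in macrophage-like and 125 and 108 CPM in monocyte-like cells, and was also called higher in T or NK-like cells (65.7 and 134 CPM, 7 and 17 UMIs). Bak1 had 26.9 and 31.2 CPM in microglia-like and 35.1 and 28.8 CPM in macrophage-like cells. Bbc3 differed between the libraries in microglia-like cells, with 29 UMIs (40.2 to 86.1 CPM) after standard and 9 UMIs (11.7 to 48.5 CPM) after FLASH irradiation. That log2 ratio of FLASH over standard was -1.18 (-2.49 to -0.11), and the 5 cells with most Bbc3 held 58.6% and 55.6% of these UMIs.

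Among the classes, Bcl2l1 was highest in oligodendrocyte-like cells, at 148 CPM (97.6 to 216) and 89.4 CPM (47.6 to 153). Given the UMI minimum, Bcl2l1 could not have been called lower in these cells. Bax was lower there, at 137 and 151 CPM. This cluster was also led by haemoglobin genes such as Hbb-bs, and had medians of 12202.5 and 16313 UMIs. Bcl2l11 was not found in oligodendrocyte precursor-like cells, with 0 UMIs in 31 and 65 cells, which allows up to 22.2 and 9.97 CPM at 3 counts, against 35.0 and 32.0 CPM in tumour-lineage cells. Bcl2 had 6 and 22 UMIs in T or NK-like cells, 56.4 CPM (20.7 to 123) and 174 CPM (109 to 263), too few for a call in the standard library. In endothelial-like cells it had 6 and 8 UMIs, 46.0 and 47.5 CPM, also too few. Tumour RNA carried over into these classes, read as the summed level of Atoh1 and Barhl1 against that in tumour-lineage cells, was at 9.54% or less in microglia-, macrophage-, monocyte-, dendritic-, T or NK- and oligodendrocyte lineage-like cells. It was 15.6% and 11.4% in endothelial-like, 19.2% and 22.3% in neutrophil-like and 79.3% and 81.6% in erythroid-like cells, and no member was called in the last class.

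Genes whose pattern was most like each member were sought among 9594 genes, by Pearson's r of log2(CPM + 5) over 14 points. The points are 7 classes in both libraries, namely the tumour-lineage states and macrophage-like cells, and share library and depth. The r values are a description. For Mcl1, Bak1, Bcl2l11 and Pmaip1 the macrophage-like points were the highest. Vps33a, of vesicle trafficking, was nearest to Mcl1 (0.98), Ccndbp1 to Bbc3 (0.97), Sh2d3c to Bcl2l1 (0.96), Snx9, of endocytosis, to Bak1 (0.97) and Bcl10 to Bcl2l11 (0.95). For Pmaip1 these were Ptpre, Rgs10 and Cd68 (all 0.99), the last a marker of phagocytes. Pmaip1 had at most 2.17 CPM in any tumour-lineage state, below the 5 CPM added, so its r rests mainly on the macrophage-like points. Bax, whose range was the smallest at 0.55 log2 units, was nearest to Lamtor5 (0.88), Bid to Commd4 (0.89), Bcl2l2 to Fbxl12 (0.93) and Bcl2 to Traf2 (0.76).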

How the data were processed

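Raw UMI counts of 2 libraries were deposited by the authors, who ran Cell Ranger 6.1.2 (per the file headers) against mm10 (per the submitters' processing notes). The sources used here do not name the annotation release. Barcodes with at least 500 genes and at most 10% mitochondrial UMIs were kept (8461 and 10366). Scrublet in scanpy 1.11.5 marked 0 cells by its automatic cutoff, which did not work, so the 573 and 860 cells with the highest scores (6.77% and 8.30%, a share set by cell number) were left out. Cells were clustered together (2000 variable genes without the members, 30 components, 15 neighbours, Leiden resolution 1, leidenalg 0.10.2).

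Types needed a mean marker log2 ratio of 1.5 and 3 markers at 1, after adding 20 CPM. States of the lineage, and types within separate clusterings of leukocytes and of the oligodendrocyte lineage, needed 0.4, and this value and those clusterings were set after seeing the data. Granule-lineage clusters below 1/3 of the library's median depth stayed unnamed and outside the lineage, whatever their leading markers. These included a cluster with mitosis markers among its leading genes (500 and 579 cells). In the separate clusterings, clusters of such depth stayed unnamed only without own leading markers or where they missed the other limits. UMIs were summed per class and library, with 0.5 count added for ratios, exact Poisson intervals for CPM and conditional binomial intervals for ratios, which were tested on simulated data. A call means 1.5-fold, in both libraries where cell classes are compared, and for non-tumour classes, members and background alike, the UMIs seen plus those expected at the tumour-lineage level had to reach 10 in each library. For the Cdkn1a split, background shares and lists used this minimum with the Cdkn1a-negative level as the expected one. Other background shares and the gene lists use genes that reach 100 UMIs when the cells compared are summed. The 10 members are all named; from each gene list the 3 largest ratios could be named. The members and lists were chosen with earlier results of these data known. Alternatives covered filters, doublets, depth, clustering and added counts. Results on some listed genes are not reported here.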

Additional observations from a re-analysis of the deposited data

Results flagged for a closer look

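The cluster led by Nol4l, Cdkn1a and Dusp8 lies outside the named states, so the comparisons between states and libraries did not use it. Its Bbc3 level was 1163 CPM in the standard library and 1957 CPM in the FLASH library, and its Pmaip1 level was 129 CPM and 338 CPM. These values lie above the limit that a count of 0 allows, which is 3 UMIs of the class total, except for Pmaip1 in the standard library, whose 3 UMIs are at that limit. The cluster's share of cells is small (12 and 42 cells), and the difference between the libraries has no replicate check.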

How the results depend on the processing

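The count of members past 1.5-fold between the libraries in tumour-lineage cells was 0 under all 11 alternatives run, and that across states lay between 6 and 9 over 9 alternatives (8 as reported). Pairs of member and non-tumour class called fell from 17 to 6 when cells were thinned to 2000 UMIs, which leaves fewer pairs with enough UMIs, and were 13 to 16 otherwise. Of the 10 members, 2 were called in Cdkn1a-high cells, Bid and, from 3 and 6 UMIs, Pmaip1. The number was 1 when thinned, 0 with at least 5 Cdkn1a UMIs, and 1 with the same state mix, where Bid lost its call (0 to 3 over 8 alternatives). Pmaip1 in Cdkn1a-high over negative cells reversed from a mean log2 ratio of 1.26 to -0.95 without the 5 cells with most UMIs in each library and class, and the cause was not tested. Bcl2l1 in neuron-like over non-cycling progenitor-like cells lay between 0.92 and 1.42, Bbc3 between 0.59 and 1.13, and Bak1 between -1.56 and -1.05, over 8 alternatives. Bcl2l1 for FLASH over standard lay between -0.16 and -0.12. The settings with unnamed clusters, with the Cdkn1a-led cluster and with the same state mix were chosen after seeing the data. No paired analysis was possible because each group has 1 library. Depth limits Pmaip1 in the tumour lineage and 63 of the 100 non-tumour pairs.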

Other observations

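Barcodes left out for high mitochondrial content and a cluster rich in nuclear RNA had family levels unlike the tumour lineage. Among barcodes with at least 500 genes and over 10% mitochondrial UMIs (1587 and 1551), Bax had 90.3 CPM (79.5 to 102) and 124 CPM (111 to 139), log2 ratios of -1.36 and -0.99 to tumour-lineage cells, while Bcl2l11 had 46.6 and 43.6 CPM (0.42 and 0.45). Bbc3 was at 15.8 and 14.3 CPM in these barcodes, and Pmaip1 had 0 and 3 UMIs. In the cluster led by the nuclear RNAs Miat and Kcnq1ot1 (509 and 321 cells), Bax had 90.9 and 104 CPM, Bcl2l11 70.3 and 53.5 CPM, Bcl2l2 17.4 and 22.0 CPM and Bcl2 37.1 and 26.1 CPM. Bcl2, Bcl2l2 and Bcl2l11 were thus above, and Bax below, the tumour lineage in that cluster of both libraries.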
